A study of Mus musculus with 25 samples.

Results

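The comparison concerns the normal difference between 2 neighbouring segments of mouse gut, the cecum (the blind pouch at the start of the large intestine) and the ileum (the last stretch of the small intestine). Its members were chosen by sample title, as the 3 arrays of sham-operated wild type cecum and the 3 arrays of sham-operated wild type ileum, out of 25 arrays in the series. The mice were C57Bl/6 females aged 6 to 8 weeks that were fed gel diet 76A before surgery, carried no engineered allele, and had their abdomen opened with no operation on the intestine. Tissue was taken after 5 weeks. The other 19 arrays hold surgical ileal loops, in which intestinal content either stands (self-filling) or drains (self-emptying), of wild type, TLR4 knockout and IL10 knockout mice. Total RNA was labelled and hybridised to Illumina bead arrays, and all 15318 probes with a detection p under 0.05 on 3 or more of the 25 arrays, of 25697 probes in all, were tested. Whether replicates are separate animals, or an ileum and a cecum of the same mouse, is not stated in the labels. The p-values rest on the scatter within groups pooled over all 25 arrays, loops and knockouts included, which gives more degrees of freedom. If the replicates of a group are not separate animals, that scatter may be technical only.

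The ileum lies at the end of the small intestine, where villi covered with enterocytes finish digestion, take back bile acids and vitamin B12, and where Paneth cells at the crypt base release antimicrobial peptides. The cecum has crypts but no villi, holds dense bacterial populations that ferment what the ileum did not absorb, and its epithelium takes up salt, water and short-chain fatty acids under a mucus layer. Position along the gut is set during development by homeobox transcription factors, of which the Hox clusters carry a code read from front to back of the body axis.

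All levels below are normalized log2 signals of 1 probe per gene (the probe with the highest mean), and differences are cecum minus ileum on that scale, with the standard error of the fit. A gene passed where its adjusted p was under 0.05 in limma, with Benjamini-Hochberg adjustment over all 15318 probes. Because bead signals are compressed at both ends, a difference can understate a ratio of RNA, and levels of different genes are not set against each other. Where a gene was not detected on any array of a tissue, its fold is a lower bound, written "at least". Since whole tissue was measured, fewer cells of a type and less RNA per cell cannot be told apart.

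Between 12687 and 13627 probes were detected on the 6 sham arrays. Arrays of the same tissue correlated over the probes tested with r between 0.986 and 0.992, and arrays of different tissues with r between 0.902 and 0.913. On the raw scale, the 95th percentile divided by the median signal was 9.72, 11.4 and 9.83 on the cecum arrays and 13, 12.4 and 12.8 on the ileum arrays, with no overlap. With this quotient as a covariate, 2933 genes passed, and 13 of the 285 named genes with a call lost it.

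The labels were first set against markers of each segment. For ileum, the bile acid carrier Fabp6 read 14.17, 14.01 and 14.11 on the ileum arrays and 7.50, 7.91 and 7.24 on the cecum arrays, and the lipid carrier Apoa4 was not detected in cecum and at least 29.8-fold higher in ileum. For large intestine, the hormone gene Insl5 read 11.49, 11.52 and 11.66 on the cecum arrays, was not detected on any ileum array, and was at least 109-fold higher in cecum. Car4, a carbonic anhydrase, was 2.28 ± 0.31 higher in cecum (adjusted p = 6.99e-06), and the chloride-bicarbonate exchanger Slc26a3 was not detected in ileum and at least 1.14-fold higher in cecum (adjusted p = 5.32e-06). Each of these 5 markers separated the 6 arrays in the direction of the label. Slc10a2, an ileal marker, and Car1, a marker of large intestine, had no probe among those tested. Of the genes deleted in the knockout groups, Tlr4 read 7.08, 7.12 and 6.43 in cecum and 4.99, 5.11 and 4.86 in ileum, and Il10 was not detected on any sham array.

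The tissues differed widely. Of all probes 26.1% passed, 14.9% higher and 11.2% lower in cecum. Of 11227 genes, 3061 passed, which is 27.3% of those tested. In cecum 1784 genes were higher (15.9%) and 1277 were lower (11.4%), and the median difference over all genes was 0.03. Counts of list members below stand against these shares. Differences of at least 1 log2 unit were found for 566 of the genes higher in cecum (5.04% of those tested) and 623 of those lower (5.55%). At 4 log2 units or more the counts were 39 and 76, so large differences were more often in the direction of ileum. In 179 genes the probe was detected on all 3 cecum arrays and on no ileum array, and in 147 genes the reverse held. The 3 arrays of a tissue lay close together, with a median standard deviation per gene of 0.17 in cecum and 0.15 in ileum.

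**Figure D1:**
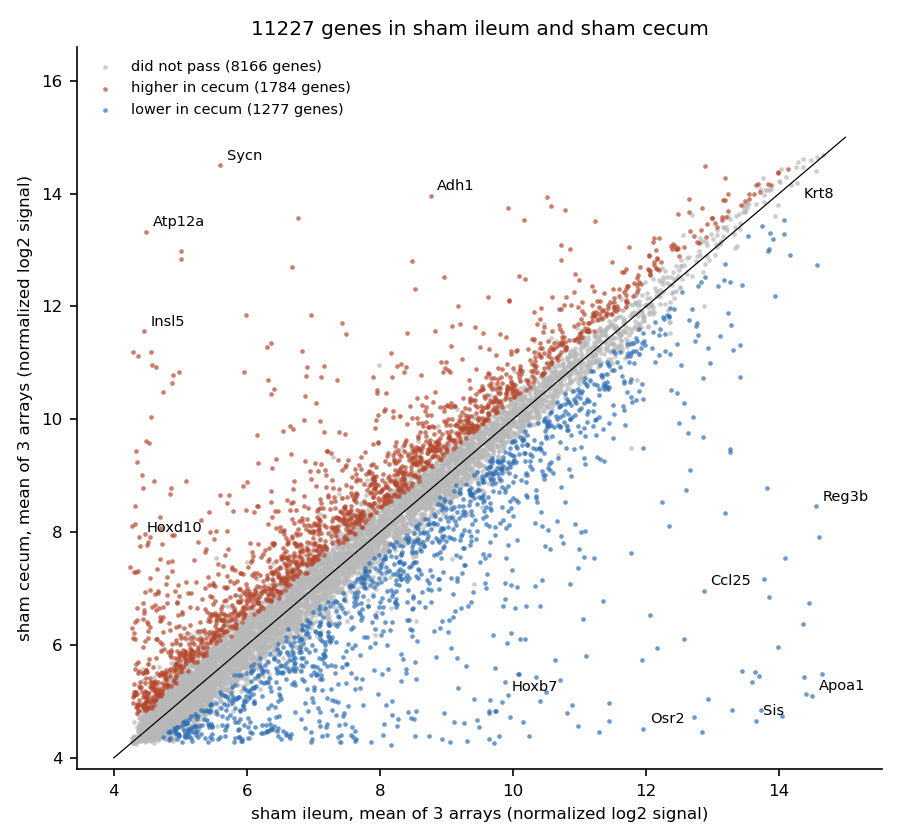
Mean normalized log2 signal of 11227 genes in sham ileum (horizontal axis, n = 3 arrays) and sham cecum (vertical axis, n = 3 arrays). Each point is a gene, coloured by whether it passed at an adjusted p under 0.05, and the line marks equal signal. Genes such as Sis and Apoa1 lie at the lower right and Atp12a, Insl5 and Sycn at the upper left, while the keratin gene Krt8 lies on the line.

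Position genes come first. Of 39 Hox genes listed, 26 were tested, 7 were higher and 6 lower in cecum, against 15.9 and 11.4% of all genes, and the median difference was -0.07 (0.03 over all genes). In the Hoxa cluster, the 4 members that passed were all higher in cecum. Hoxa7 read 8.37, 8.13 and 8.55 in cecum and 5.45, 5.39 and 5.43 in ileum, a difference of 2.93 ± 0.28 (adjusted p = 4.62e-08). Hoxa13, Hoxa9 and Hoxa5 were higher by 1.93 ± 0.15, 1.81 ± 0.12 and 1.76 ± 0.28. None of the arrays overlapped between tissues for these genes. Hoxa2 and Hoxa4, nearer the front end of the cluster and named after their values were seen, differed by 0.27 and -0.07 and did not pass. Both lay near background, where a difference could not be read. Hoxa2 was detected on 2 cecum arrays and 1 ileum array, and Hoxa4 on 2 arrays of each tissue.

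In the Hoxb cluster 4 members were lower in cecum. Hoxb7 read 5.41, 5.82 and 4.78 in cecum and 10.03, 9.97 and 9.64 in ileum, so it was lower in cecum by 4.54 log2 units (adjusted p = 2.19e-10). Hoxb6 was not detected in cecum and was at least 4.64-fold higher in ileum, and Hoxb4 and Hoxb5 fell (-1.43 and -0.97) in cecum. At the far end of the same cluster, Hoxb13 was detected on the 3 cecum arrays (5.24, 5.12 and 4.95) and on no ileum array, at least 1.25-fold higher in cecum (adjusted p = 3.18e-06). Hoxb9 and Hoxb2, named after their values were seen, differed by -0.39 and -0.49 and did not pass.

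The Hoxc genes that passed, Hoxc6 and Hoxc9, were lower in cecum, and the Hoxd genes that passed, Hoxd10 and Hoxd13, were higher. Hoxc10, detected on every sham array and named after its values were seen, differed by -0.11 and did not pass. Hoxd8 (-0.38) did not pass either, nor did Hoxd9 (0.27) and Hoxd11 (0.19), also named afterwards. The other tested members, Hoxc4, Hoxc8, Hoxc13 and Hoxd4, lay near or below detection and did not pass. Hoxc6 read 4.31, 4.38 and 4.45 in cecum, where it was not detected, and 8.60, 8.77 and 8.84 in ileum, at least 16-fold higher (adjusted p = 1.12e-07). Hoxc9, also not detected in cecum, was at least 2.43-fold higher in ileum. Hoxd10 read 9, 7.92 and 6.81 in cecum and was not detected in ileum, and Hoxd13 read 8.24, 7.47 and 5.19 against 4.35, 4.65 and 4.64. Both passed (adjusted p = 7.7e-09 and 0.000114), and for both the third cecum array was the lowest and the first the highest.

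**Figure D2:**
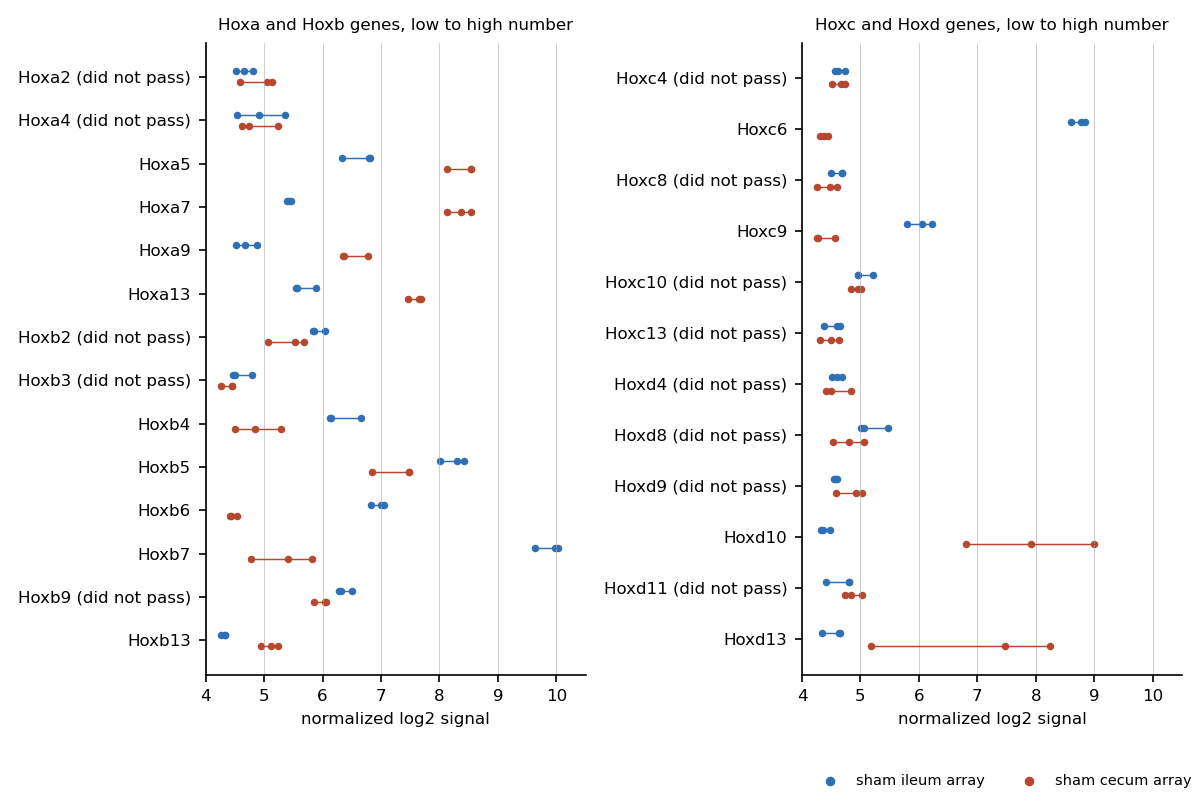
Normalized log2 signal (horizontal axis) of the tested Hoxa, Hoxb, Hoxc and Hoxd genes on each of the 3 sham ileum and 3 sham cecum arrays, ordered by number within a cluster. Points are arrays and lines join the lowest and highest array. The Hoxa5 to Hoxa13 points of cecum lie to the right of ileum, the Hoxb4 to Hoxb7, Hoxc6 and Hoxc9 points lie to the left, and the cecum points of Hoxd10 and Hoxd13 are spread out.

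Of 34 transcription factors of gut regions tested, 9 were higher in cecum and 10 lower, against 15.9 and 11.4% of all genes. The largest difference was that of Osr2, a zinc finger factor of the odd-skipped family, which read 12.01, 11.95 and 11.91 in ileum and was not detected in cecum. It was at least 149-fold higher in ileum (adjusted p = 2.89e-17). Isx, a homeobox factor that limits carotenoid uptake in the intestine, was lower in cecum by 4.60, with the second cecum array (6.42) above the others (5.15 and 4.90). Tbx3, a T-box factor, differed by -4.81 on the probe with the highest mean and by -0.81 on another probe, and both passed.

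Gata5 and Hnf4g were not detected in cecum and were at least 7.21-fold and 6.26-fold higher in ileum, and Creb3l3, an endoplasmic reticulum factor of lipid metabolism, fell by 3.72. Cdx2, which keeps intestinal identity, read 9.01, 10.06 and 9.96 in cecum and 11.65, 11.54 and 11.33 in ileum and fell by 1.83 in cecum (adjusted p = 3.39e-06). Its relative Cdx1 was higher in cecum by 0.69 ± 0.16 (adjusted p = 0.00201). Hnf4a did not pass, with a difference of -0.06 ± 0.16, nor did Klf5 and Elf3.

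Among factors higher in cecum, Foxa2 read 7.32, 7.52 and 7.11 against 5.17, 4.87 and 4.59 in ileum, a difference of 2.45 ± 0.18 (adjusted p = 6.04e-10). Foxa1, its paralog, was higher by 1.10 ± 0.17. Pparg, the fatty acid receptor, was higher by 1.91 ± 0.38, and its coactivator Ppargc1a by 1.38 ± 0.25. Klf4 and Nr1i3 rose by 1.02 and 0.69 in cecum. No sham array of either tissue overlapped the other tissue for these 6 genes. The call of Nr1i3 was lost without the first cecum array (0.56) or the third ileum array (0.60).

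**Figure D3:**
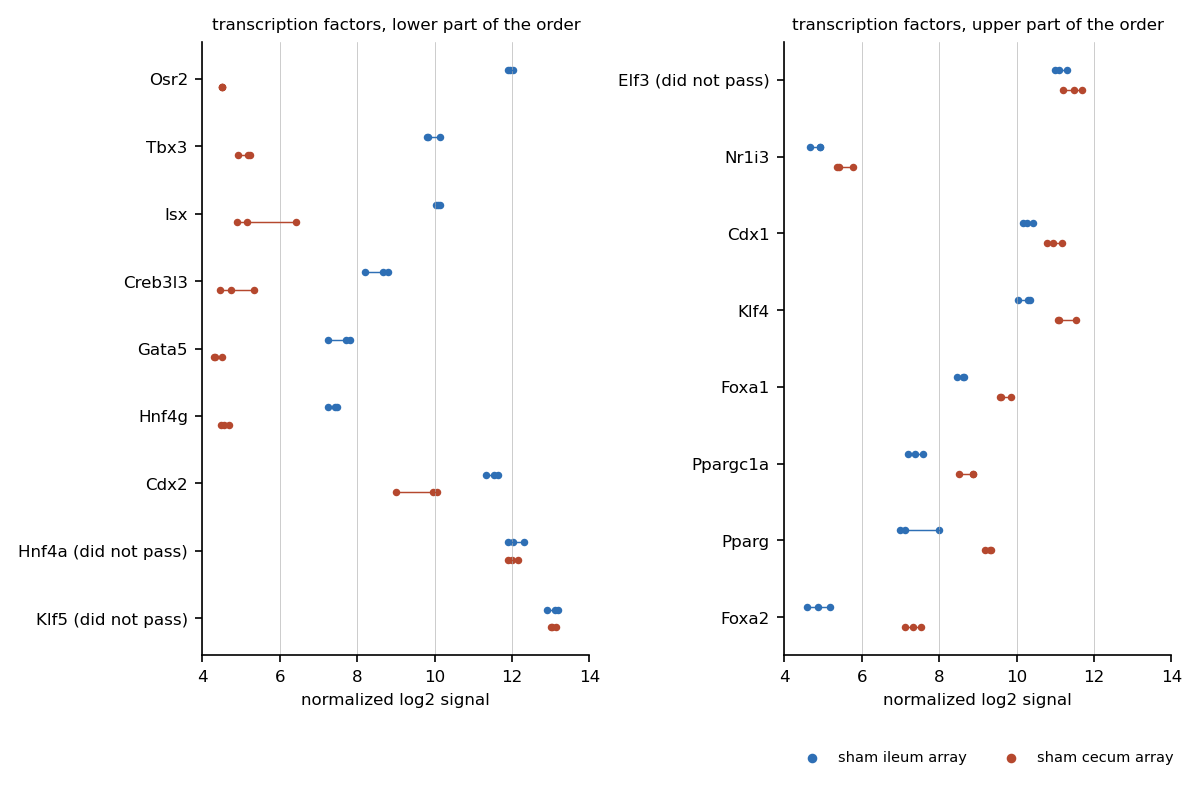
Normalized log2 signal (horizontal axis) of the 17 regional transcription factors named in the text on each sham ileum and sham cecum array, from the most negative difference (Osr2, upper left) to the most positive (Foxa2, lower right). Points are arrays and lines join the lowest and highest array. The second cecum array of Isx lies apart from the other cecum arrays.

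Promoters of 3 genes with large differences are shown, each with a core known to be bound by a family of gut transcription factors. They are the 250 bases before the RefSeq start (GRCm38.p6), read 5′ to 3′ on the gene's strand, with the matched letters in capitals. Sis (sucrase-isomaltase, chr3:72967864-72968113, minus strand) carries a match to TTTATNG, a core bound by CDX factors, from 52 to 46 bases before the start. Treh (trehalase, chr9:44672983-44673232, plus strand) carries a match to CAAAGTCCA, a core bound by HNF4 factors, from 71 to 63 bases before the start. Sycn (chr7:28540635-28540884, plus strand) carries 2 matches to AGATAA, a core bound by GATA factors, 236 to 231 and 44 to 39 bases before the start, and none to the other 2 motifs.
Sis: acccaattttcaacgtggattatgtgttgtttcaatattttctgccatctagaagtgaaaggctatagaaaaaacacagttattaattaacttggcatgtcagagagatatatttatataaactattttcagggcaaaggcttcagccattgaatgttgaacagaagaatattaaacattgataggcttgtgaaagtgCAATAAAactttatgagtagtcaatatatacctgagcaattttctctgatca
Treh: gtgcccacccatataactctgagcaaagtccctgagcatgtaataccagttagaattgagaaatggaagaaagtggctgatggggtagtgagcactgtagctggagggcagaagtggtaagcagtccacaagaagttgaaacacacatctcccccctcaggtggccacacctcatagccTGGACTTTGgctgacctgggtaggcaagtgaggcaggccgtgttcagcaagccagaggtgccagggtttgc
Sycn: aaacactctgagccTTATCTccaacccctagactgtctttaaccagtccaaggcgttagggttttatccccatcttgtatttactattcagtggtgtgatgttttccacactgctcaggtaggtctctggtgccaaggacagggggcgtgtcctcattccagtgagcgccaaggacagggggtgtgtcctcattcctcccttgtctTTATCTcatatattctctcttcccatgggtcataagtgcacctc

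Both strands were searched, and a match says only that these letters lie in this window. TTTATNG can overlap a TATA box read on the other strand. Of all 32851 RefSeq promoters, 9.81% held TTTATNG, 0.384% held CAAAGTCCA and 9.99% held AGATAA. Among promoters of genes lower in cecum these shares were 7.32, 0.944 and 7.08%, and among promoters of genes higher in cecum 6.78, 0.504 and 5.89%, beside 6.92, 0.418 and 6.54% for all genes tested. The CAAAGTCCA shares rest on 12 and 9 promoters. For genes lower in cecum by at least 4 log2 units the shares were 14.8, 1.64 and 14.8% of 61 promoters (9, 1 and 9 promoters). For genes higher by at least 4 log2 units they were 12.5, 0 and 21.9% of 32 promoters (4, 0 and 7 promoters).

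Digestive genes were lower in cecum. Of 25 digestive enzymes and brush border proteins tested, 24 were lower in cecum and 0 higher in limma (0 also at an unadjusted p under 0.05), with a median difference of -2.68, and Tm4sf20 (0.36 ± 0.30, adjusted p = 0.435) did not pass. Sis, which splits sucrose and starch fragments, read 4.60, 4.60 and 4.78 in cecum and 13.64, 13.72 and 13.63 in ileum (adjusted p = 8.39e-20). Treh, which splits trehalose, fell by 6.78 and the peptidases Anpep, Xpnpep2 and Naaladl1 by 8.03, 6.47 and 5.53. Another Xpnpep2 probe differed by -4.09. The scaffold protein Pdzk1, which anchors transporters in the apical membrane, fell by 8.00, with a standard error of 0.93. Among structural brush border genes, Vil1, Myo1a and Cdhr5, chosen after their values were seen, differed by -1.62, -1.95 and -0.72 and passed.

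Of 29 sugar, peptide and amino acid transporters, 21 were lower and 5 higher in cecum (median -1.46). Slc6a19, the main carrier of neutral amino acids, read 4.84, 5.14 and 4.95 in cecum and 11.47, 11.50 and 11.35 in ileum, and Slc7a9, Slc7a7 and Slc16a10, which pass on cationic and aromatic amino acids, fell, with differences of -3.86, -3.30 and -3.15. Among the members higher in cecum, Slc20a1, a sodium-dependent phosphate carrier, read 9.02, 8.11 and 9.21 against 4.95, 4.81 and 4.79 (adjusted p = 3.57e-11). Slc36a1, a proton-coupled amino acid carrier, was not detected in ileum and at least 5.93-fold higher in cecum, and Slc2a1, the basolateral glucose carrier of many cells, rose by 2.53. The creatine carrier Slc6a8 rose by 0.56.

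Of 26 genes of lipid uptake, 22 were lower and 3 higher (median -3.02). Apoa1, an apolipoprotein of high density lipoprotein, read 4.53, 5.34 and 5.42 in cecum and 14.52, 14.43 and 14.56 in ileum, the largest fall of all 11227 genes (-9.41 ± 0.26). Npc1l1, the sterol importer at the brush border, and Mttp, which loads lipid on to apolipoprotein B, were not detected in cecum and were at least 45.4-fold and 42.5-fold higher in ileum. Mogat2 and Soat2, which rebuild glycerides and cholesterol esters, fell, with differences of -6.01 and -5.41. Another probe of each was not detected in cecum and at least 16.5-fold and 2.73-fold higher in ileum. Higher in cecum were Acsl3, an acyl-CoA synthetase (2.37 ± 0.31), the lipid droplet protein Plin2 (1.19 ± 0.30) and the editing enzyme Apobec1 (0.79 ± 0.22).

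Of 9 bile acid genes tested, 7 were lower and 1 higher (median -3.15). Slc51a, a subunit of the basolateral exporter, read 4.86, 6.79 and 4.72 in cecum, the second array again above the others, and 13.71, 13.68 and 13.73 in ileum. Its partner Slc51b read 9.32, 10.16 and 8.95 against 13.18, 13.30 and 13.29, a fall of 3.78. The bile acid receptor Nr1h4 fell by 1.79 from 11.58, 11.76 and 11.72, and its hormone target Fgf15 was not detected in cecum and at least 7.40-fold higher in ileum. Abcc3, an exporter of conjugates on the basolateral side, was the member higher in cecum (1.00 ± 0.25, adjusted p = 0.00392), while Abcc2 on the apical side fell (-3.46). Another Abcc2 probe was not detected in cecum and at least 2.40-fold higher in ileum.

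Of 20 genes of cholesterol synthesis and its regulators, 13 were lower and 0 higher in limma (median -0.78). At an unadjusted p under 0.05 the counts were 14 and 0. Cyp51, Hsd17b7, Sqle and Lss, enzymes from squalene to sterol, fell, with differences of -1.74, -1.53, -1.39 and -1.16.

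Of 29 genes of gluconeogenesis, fructose and arginine metabolism, 19 were lower and 3 higher (median -1.35). Cps1, which makes carbamoyl phosphate, read 5.62, 5.91 and 5.89 in cecum and 11.07, 10.92 and 11.31 in ileum. The differences of Arg2, an arginase, and Prodh, which oxidises proline, were -3.53 and -3.18. Nags, which makes the activator of Cps1, differed by -3.15, and another probe of it was not detected in cecum and at least 2.44-fold higher in ileum. The ornithine carrier Slc25a15 and the gluconeogenic Fbp1 differed by -3.02 and -2.85, and each of these 5 genes passed. Ass1, which joins citrulline and aspartate, rose by 1.78 in cecum (8.57, 8.78 and 8.58 against 6.82, 6.71 and 7.07, adjusted p = 2.28e-06). The aldose reductase Akr1b3 rose by 1.92 and G6pc3 by 1.17.

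Of 42 genes of vitamin and mineral uptake, 14 were lower and 9 higher in cecum. For vitamin B12, Amn, the membrane anchor of the ileal receptor, read 5.61, 5.94 and 5.65 in cecum and 11.96, 11.86 and 12.02 in ileum (adjusted p = 7.36e-11), and the carrier Tcn2 fell by 2.16. Cd320, the receptor for that carrier, was not detected in ileum and at least 1.83-fold higher in cecum. The riboflavin carrier Slc52a3 fell by 2.47. Among the members higher in cecum, Slc46a1, the proton-coupled folate transporter, rose by 2.76 ± 0.25, Slc40a1, the iron exporter, by 2.16 ± 0.43 and Trpm6, the magnesium channel, by 2.69 ± 0.48.

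Adh1, an alcohol dehydrogenase, read 14.05, 14.03 and 13.81 in cecum and 8.51, 8.78 and 9 in ileum, a rise of 5.2 ± 0.43 (adjusted p = 3.32e-09). Rdh7, a retinol dehydrogenase, read 4.77, 4.69 and 4.59 against 8.95, 8.90 and 7.69, and Aldh1a1, which makes retinoic acid, fell by 2.78 in cecum.

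**Figure D4:**
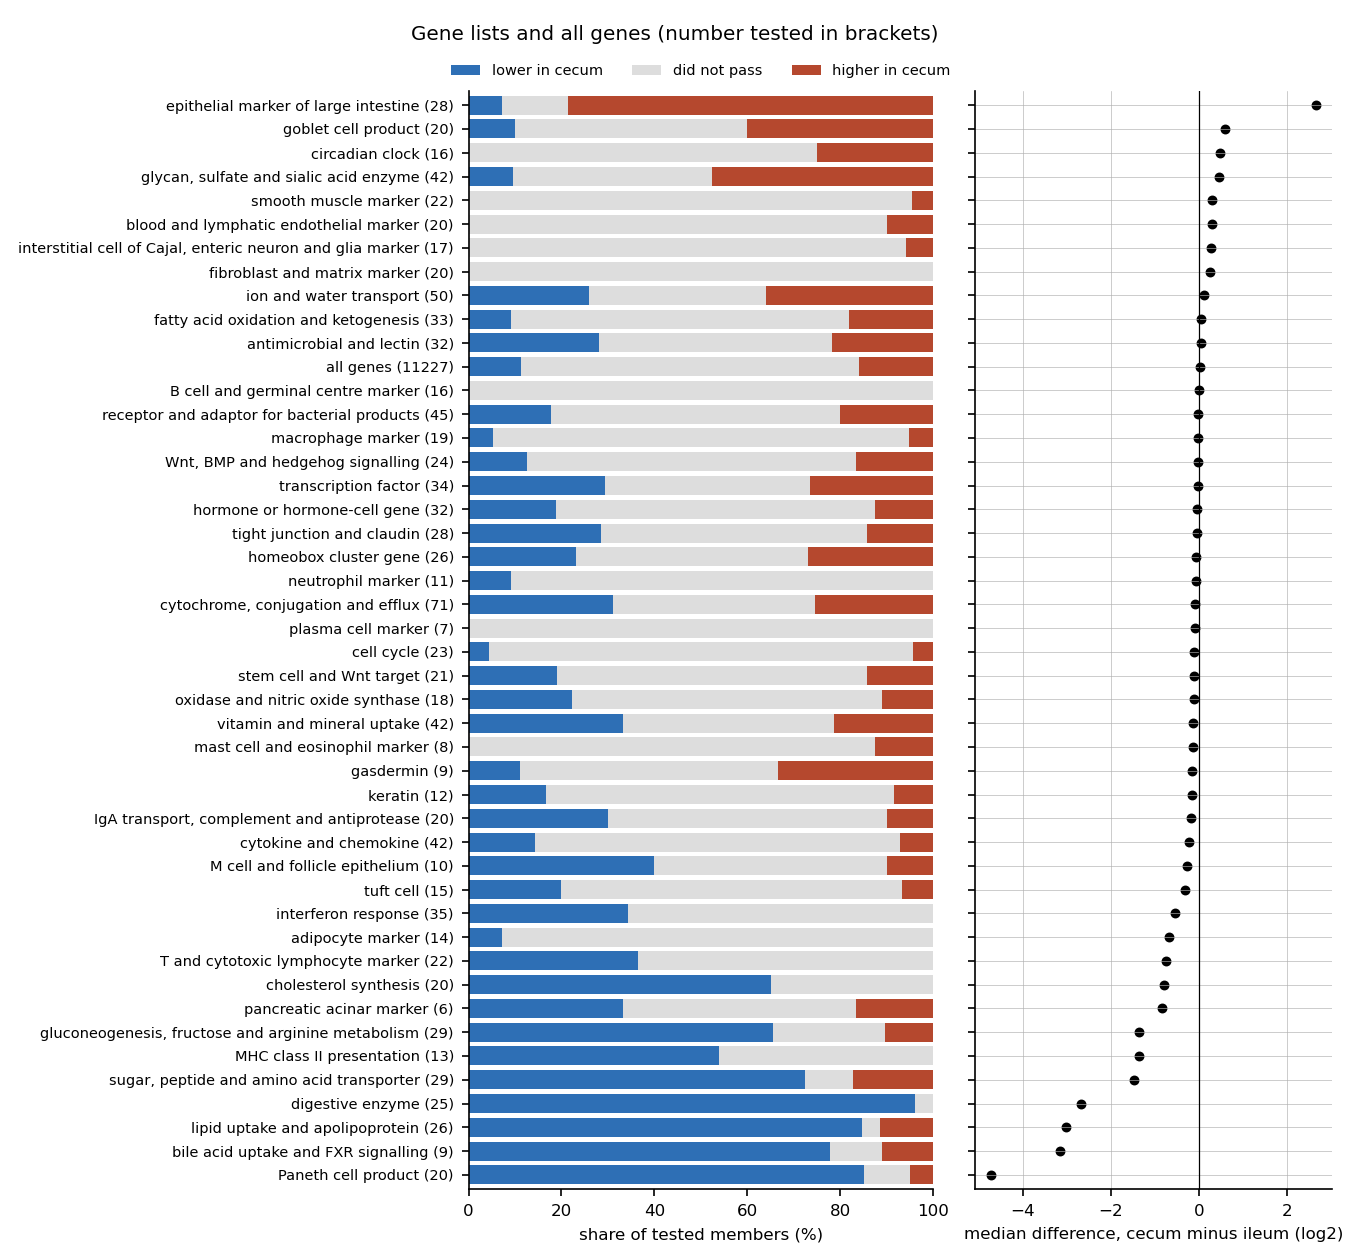
Share of tested members (horizontal axis of the left panel, %) that were lower in cecum, did not pass or were higher in cecum, and median difference of the tested members (right panel, cecum minus ileum, log2), for 45 gene lists and for all genes, ordered by the median. Numbers in brackets are genes tested. Paneth cell products (median -4.73) lie at the bottom and epithelial markers of large intestine (2.66) at the top.

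Of 50 genes of salt and water transport tested, 18 were higher and 13 lower in cecum (median 0.11). The proton-potassium pump subunit Atp12a read 13.57, 13.38 and 13.01 in cecum and was not detected in ileum, at least 372-fold lower there (adjusted p = 1.37e-22). Fxyd4, a regulator of the sodium pump, was likewise not detected in ileum and at least 80.9-fold higher in cecum. Another Fxyd4 probe, not detected in ileum either, gave at least 34.8-fold. Hsd11b2, which keeps cortisol-type steroids from the aldosterone receptor, read 11.11, 10.95 and 10.72 against 7.32, 6.62 and 6.75. The subunits of the epithelial sodium channel, chosen after their values were seen, were all higher in cecum. Scnn1a rose by 3.13 ± 0.26, and Scnn1b and Scnn1g, not detected in ileum, were at least 6.08-fold and 5.69-fold higher in cecum.

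The water channel Aqp8 read 12.93, 13.18 and 12.87 in cecum and 4.96, 4.88 and 5.18 in ileum, and Aqp4 11, 12 and 12.10 against 7.79, 7.18 and 7.32. Aqp7, which also passes glycerol, was not detected in cecum and at least 13.9-fold higher in ileum, and its 2 other probes, not detected in cecum either, gave at least 2.63-fold and 2.03-fold. Car2, the cytosolic carbonic anhydrase, read 13.02, 12.52 and 12.96 against 5.11, 4.85 and 5.08 (adjusted p = 2.97e-20), while the membrane-bound Car12 fell by 2.47 in cecum.

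Slc26a6, an apical anion exchanger, read 4.31, 4.47 and 4.92 in cecum and 11.09, 10.89 and 10.98 in ileum. Clca4b, of the calcium-activated chloride channel regulator family, read 6.08, 9.33 and 6.08 against 13.90, 13.62 and 13.81, with the second cecum array more than 3 log2 units above the others, and its neighbour Clca4a showed the same array highest (9.18, 10.88 and 9.21). Clca4b and Clca4a differed by -6.61 and -2.88 on these probes and by -5.52 and -1.67 on others. Guca2b, the gut peptide uroguanylin that drives chloride secretion, fell by 4.85. The calcium-activated chloride channel Ano1, which also marks interstitial cells of Cajal, and Best2, a bestrophin channel of goblet cells, rose by 3.06 ± 0.29 and, from no detection in ileum, at least 3.88-fold.

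Epithelial markers of large intestine were higher in cecum in 22 of 28 and lower in 2, with a median of 2.66. Sycn, known as a pancreatic granule protein, read 14.56, 14.62 and 14.33 in cecum and 6.17, 5.71 and 4.93 in ileum. Nxpe2 and Nxpe4, relatives of neurexophilin, rose by 6.38 and 5.89. Against the name of the list, Tmigd1, an adhesion protein of mature epithelium, fell by 4.85 in cecum and Krt20, a keratin of surface epithelium, by 1.61. Other genes among the largest rises were Tgm3, a transglutaminase, not detected in ileum and at least 85.4-fold higher in cecum, and Eno3, an enolase otherwise typical of muscle, which read 11.79, 12.07 and 11.67 against 5.90, 5.96 and 6.11. Wfdc2, a protease inhibitor, rose by 6.80.

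Paneth cell products gave the lowest median, -4.73, with 17 of 20 tested lower in cecum and 1 higher. The defensin probes Defa21, Defa26 and Defa5 fell (-9.31, -9.27 and -9.17). Defensin genes are near-identical copies, so a probe may read several of them and the single names are uncertain. Lyz1, the Paneth cell lysozyme, chosen after its values were seen, read 12.77, 12.69 and 12.73 in cecum against 14.60, 14.60 and 14.52 in ileum, a fall of 1.84. Its copy Lyz2, typical of macrophages, did not pass (0.82 ± 0.66, adjusted p = 0.417), and a second Lyz2 probe was not detected in cecum and did not pass either (adjusted p = 0.0624). Mptx1, a pentraxin, went the other way, at 12.99, 12.32 and 12.77 in cecum and 6.09, 6.02 and 7.91 in ileum (adjusted p = 2.81e-08).

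Other antimicrobial genes divided 7 higher to 9 lower of 32. The C-type lectins Reg3g and Reg3a read 5.07, 4.54, 4.90 and 4.70, 4.27, 4.42 in cecum, and fell (-8.45 and -8.38). Reg3b fell by 6.09 and kept levels of 8.72, 8.58 and 8.07. The lectins Itln1 and Lgals2 fell (-8.12 and -7.91), and Defb37 was not detected in cecum. In the other direction, the acute-phase genes Saa1 and Saa2 rose by 4.38 ± 0.71 and 2.61 ± 0.28, the scavenger protein Dmbt1 by 1.27 ± 0.22 and Sprr2a1, a small proline-rich protein, by 1.58 ± 0.34. Zg16, Lgals4 and Pglyrp1 did not pass, with differences of 0.25, 0.12 and 0.08.

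Of 9 genes of gasdermins, which form membrane pores, and their activators, 3 were higher and 1 lower. Gsdmc2 read 11.87, 11.14 and 11.57 in cecum and 7.93, 7.99 and 9.30 in ileum, and Gsdmc3 10.28, 9.57 and 9.50 against 5.79, 6.06 and 7.81. Both rose (adjusted p = 0.0219 and 0.036), and in both the third ileum array was the highest of its tissue. The call of Gsdmc2 was lost on leaving out cecum array 1 or 3 or ileum array 1 or 2 (differences of 2.88 to 3.10), and that of Gsdmc3 on leaving out any array but the third of ileum (2.85 to 3.37). These are near-identical copies whose probes may cross-react. Gsdme read 6.61, 6.79 and 6.94 in cecum and 11.44, 11.41 and 11.20 in ileum, a fall of 4.57 (adjusted p = 9.41e-08). Gsdmd, Casp1 and Casp4 did not pass, at -0.34, -0.15 and -0.46, and the cytokine Il18, which is freed by caspase 1, rose by 2.73 ± 0.47.

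Of 20 goblet genes 8 were higher and 2 lower (median 0.60), and 3 members with high signals did not pass. Zg16 read 14.66, 14.56 and 14.62 against 14.43, 14.37 and 14.28, and Clca1 and Muc13 differed by 0.53 and 0.20. Muc1, a membrane mucin, read 7.82, 8.33 and 7.72 in cecum and 4.54, 5.09 and 4.99 in ileum (adjusted p = 1e-12). Klk1, a kallikrein protease, rose by 2.92 and Creb3l1, a secretory factor, by 1.64, while Spink4 and Slc12a8 fell (-0.83 and -0.79).

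Of 42 enzymes of glycans, sulfate and sialic acid, 20 were higher and 4 lower (median 0.47). The chain-extending enzymes B3galt5, B3gnt7 and B3gnt5 rose by 5.86, 4.38 and 3.58. B3galt5 read 10.40, 11.43 and 10.70 against 4.96, 4.73 and 5.27. Gne, which makes the precursor of sialic acid, rose by 3.35 ± 0.27, the sialyltransferase St3gal6 by 3.56 ± 0.51, and St6galnac6, not detected in ileum, was at least 21.9-fold higher. Its 2 other probes, also not detected there, gave at least 5.77-fold and 4.73-fold. Fut2, which adds fucose, rose by 3.05 ± 0.63. Lower in cecum were Chst8, St3gal4, Gal3st2 and B4galnt2, with differences of -1.58, -1.42, -1.35 and -1.06. The call of B4galnt2 was lost without the first cecum array (-0.71), and that of Gal3st2 without cecum array 2 or 3 or ileum array 1 or 2 (-1.33 to -1.30).

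Of 32 hormone genes tested, 6 were lower and 4 higher, against 11.4 and 15.9% of all genes. Nts (neurotensin) read 4.64, 5.45 and 5.00 in cecum and 9.99, 9.81 and 9.15 in ileum, and Sct (secretin) 7.64, 8.52 and 8.16 against 12.43, 12.45 and 12.15. Sst (somatostatin) fell by 2.15, and Ghrl (ghrelin) and Cck (cholecystokinin) were not detected in cecum. Pyy (peptide YY) rose by 0.98 ± 0.20 beside Insl5. Gcg and Chgb did not pass, with differences of -0.49 and 0.04. Of 10 M cell and follicle genes 4 were lower and 1 higher. Over the 6 fits that each left out 1 sham array, the lower Aif1 and Tnfrsf11b each lost their call in 4. Marcksl1, also lower, lost it in 1, and Sox8, the higher member, in 5. In tuft cells, the sensory cells of the epithelium, 3 of 15 genes were lower and 1 higher. The lower ones, Avil, Sucnr1 and Trpm5, each lost their call without the third ileum array (-0.92, -0.66 and -0.80). Avil and Sucnr1 also lost it without any 1 of the cecum arrays. The summed linear level of the list was 725, 823 and 1347 on the ileum arrays and 649 to 744 on the cecum arrays. Dclk1, the usual tuft cell marker, did not pass (-0.47 ± 0.40, adjusted p = 0.444). Trpm5, the cation channel of these cells, fell by 1.22, but its second probe, detected on 1 of the 6 arrays, did not pass (adjusted p = 0.716).

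Of 21 stem cell and Wnt target genes, 4 were lower and 3 higher, against 11.4 and 15.9% of all genes. The lower ones include Ccnd1 (-0.55), whose call was lost on leaving out any 1 of the 6 sham arrays. Among the higher ones is the water channel Aqp4. Olfm4, a marker of small intestinal stem cells, read 11.33, 11.35 and 11.22 in ileum and was not detected in cecum, at least 94.3-fold lower. Lgr5 fell by 1.05 and Axin2, a Wnt target, by 1.63 (7.90, 8.28 and 8.12 against 9.69, 9.78 and 9.74). Lrig1 and Ephb2, also of the crypt base, rose by 0.90 and 0.76. Of 23 cell cycle genes, 1 was higher and 1 lower. Of 24 genes of Wnt, BMP and hedgehog signalling, 4 were higher and 3 lower, against 15.9 and 11.4% of all genes. The signal Ihh, made by surface epithelium, rose by 1.07 ± 0.29, and of the BMP ligands Bmp2 rose by 0.76 while Bmp3 and Bmp7 fell (-1.54 and -0.72). The call of Ihh was lost without the second cecum array (0.87), and that of Bmp7 without the first cecum (-0.52) or first ileum array (-0.67).

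Of 28 junction genes, 8 were lower and 4 higher, against 11.4 and 15.9% of all genes. Cldn4 read 8.23, 8.67 and 8.69 in cecum and 10.89, 11.06 and 10.40 in ileum, and Cldn15 and Cldn2, which form cation pores, fell (-1.48 and -1.24). Cldn8 was not detected in ileum and read 4.94, 5.10 and 4.76 in cecum. Krt17 rose by 2.10, Krt23 fell by 1.22, and Krt8, Krt18 and Krt19, the usual keratins of simple epithelium, did not pass, with differences of -0.10, -0.20 and 0.02.

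Enzymes for foreign compounds divided 18 higher to 22 lower of 71. The Cyp2d genes lie side by side, and their probes may cross-react, since these paralogs are alike in sequence. Cyp2d12 read 11.36, 10.82 and 10.62 in cecum and 4.91, 4.57 and 4.42 in ileum (adjusted p = 4.47e-18). Cyp2d9 and Cyp2d34 were not detected in ileum and at least 38.2-fold and 25.1-fold higher in cecum, and Cyp2d10 rose by 3.12. Cyp2d26, chosen after its values were seen, fell by 1.57. Cyp2c55 rose by 4.99 and the sulfotransferase Sult1a1 by 3.78. Cyp3a25 was not detected in cecum and at least 19.8-fold higher in ileum, Ugt2b36 fell (-4.48, and -3.11 on a second probe) and the carboxylesterase Ces1c was at least 7.10-fold lower in cecum.

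Of 18 oxidases and nitric oxide synthases, 2 were higher and 4 lower. Nox1, the superoxide-making oxidase of large intestinal epithelium, read 8.16, 8.77 and 9.08 in cecum and 4.74, 4.47 and 5.34 in ileum (adjusted p = 3.32e-08), and its activator Noxa1 rose by 0.87. Nos2, the inducible nitric oxide synthase, read 4.88, 4.68 and 4.91 against 7.26, 6.35 and 7.16 and fell by 2.10. Xdh, Aoc1 and Cat fell (-2.07, -1.75 and -1.35). Of 33 genes of fatty acid oxidation, 6 were higher and 3 lower, against 15.9 and 11.4% of all genes, of which Acsm3 rose by 2.66 and Angptl4, a lipase inhibitor, fell by 3.5. Of 16 clock genes 4 were higher and 0 lower in limma (5 and 1 at an unadjusted p under 0.05), Dbp with the largest rise (1.88 ± 0.68, adjusted p = 0.0443). Its second cecum array, at 9.88, was below the other 2 (11.10 and 11.52). Its call was lost on leaving out any array but that one (differences of 1.53 to 2.05), and the part of the hour of collection was not tested.

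Receptors for bacterial products were 9 higher and 8 lower of 45, against 15.9 and 11.4% of all genes. Tlr1, a receptor for lipopeptides, read 7.65, 7.47 and 7.42 in cecum and 5.24, 5.30 and 5.09 in ileum, and Tlr4 and Tlr2 rose by 1.89 ± 0.20 and 1.47 ± 0.19. Cd14, which presents lipopolysaccharide to TLR4, rose by 2.13 ± 0.24 and Nod1, a cytosolic sensor of peptidoglycan, by 0.97. Il1rn, the antagonist of interleukin 1, read 8.83, 8.71 and 9.20 against 5.13, 5.14 and 5.00. The signalling genes Traf6, Tollip, Irak4 and Relb fell (-0.54, -0.77, -0.96 and -1.15), Traf6 no longer passing without the third cecum array (-0.47). The flagellin sensor Naip5 fell by 2.48, but a second probe did not pass (-0.84, adjusted p = 0.108). Myd88 and Rela did not pass (-0.18 and -0.01).

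Of 42 cytokine and chemokine genes, 6 were lower and 3 higher, against 11.4 and 15.9% of all genes. Ccl25, which draws lymphocytes to the small intestine, read 6.98, 7.38 and 6.52 in cecum and 12.91, 12.92 and 12.77 in ileum, and differed by -5.91, and by -7.04 on a second probe. Ccl28, its counterpart of large intestine, rose by 1.51 ± 0.32 (adjusted p = 0.001). Ccl21a, made by lymphatic vessels, rose by 2.51 ± 0.44, and the lymphatic marker Lyve1 by 0.83, whose call was lost without cecum array 1 or 3 or ileum array 1 or 3 (0.69 to 0.84). Ccl5, made by cytotoxic lymphocytes, and Cxcl9, an interferon target, fell (-2.62 and -2.40).

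Antigen presentation was lower in cecum for 7 of 13 MHC class II genes, with 0 higher in limma (median -1.36) and 1 higher at an unadjusted p under 0.05. H2-DMa read 7.93, 7.34 and 7.84 in cecum and 9.91, 10.95 and 10.83 in ileum (adjusted p = 9.55e-07). Cd74, the invariant chain, H2-Ab1 and H2-Aa fell (-2.11, -1.95 and -1.88), and the master regulator Ciita, chosen after its values were seen, fell by 1.36. H2-DMb2, H2-Oa and H2-Ob, the last 2 known from B cells and also chosen afterwards, did not pass, with differences of 0.31, 0.17 and 0.40. Of 35 interferon response genes 12 were lower and 0 higher in limma (15 and 1 at an unadjusted p under 0.05, median -0.54), with Rsad2 down by 1.83, Oasl1 by 1.63 and Ddx58 by 1.61.

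Of 22 T and cytotoxic cell markers 8 were lower and 0 higher in limma (12 and 0 at an unadjusted p under 0.05, median -0.75). Cd3g read 6.06, 6.02 and 5.90 in cecum and 7.52, 8.45 and 8.36 in ileum, and Itgae, the integrin of intraepithelial lymphocytes, fell by 1.15 (its call lost without the first cecum array, -1.02, or the third ileum array, -0.97), while Lck, Klrd1 and Thy1 did not pass (-0.84, -0.77 and 0.30). The summed linear level of the list was 1089 to 1208 on the cecum arrays and 1693 to 3091 on the ileum arrays, and 7 of the markers were not detected in cecum. The first ileum array was the lowest of its tissue both here and for Cd74 and H2-DMa. The part of lymphocytes in the MHC class II, interferon and chemokine differences was not tested.

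Of 16 B cell and 7 plasma cell markers 0 passed in limma (0 also at an unadjusted p under 0.05), and B cell markers varied within each tissue. Their summed level ran from 786 to 1897 in cecum and from 587 to 3163 in ileum, with the second ileum array highest. On that array Cxcl13, of lymphoid follicles, read 10.25 against 7.15 and 5.64 on the others, and Fcmr, an IgM receptor, 8.67 against 6.44 and 4.41. Of 20 genes of IgA transport, complement and antiproteases 6 were lower and 2 higher. Pigr, which carries IgA across the epithelium, rose by 0.78 ± 0.17 in cecum. Of 19 macrophage markers 1 was higher (Cd14) and 1 lower (Aif1), against 15.9 and 11.4% of all genes. Of 11 neutrophil markers 1 was lower, Mmp9, whose call was lost on leaving out any 1 of the 6 sham arrays.

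Of 22 smooth muscle markers, only Tagln passed (1.61 ± 0.54, adjusted p = 0.0322), with a median of 0.31 beside 0.03 for all genes. Its call was lost without cecum array 2 or 3 or ileum array 1 or 2 (1.32 to 1.64). Acta2 and Actg2 differed by 0.37 ± 0.33 and 0.72 ± 0.47 and did not pass, although no sham array of either tissue overlapped the other tissue. The summed level of this list was 50587 to 69011 in cecum and 42022 to 55176 in ileum. Of 20 fibroblast markers 0 passed in limma (2 at an unadjusted p under 0.05), and of 20 endothelial markers 2 were higher. Of 17 markers of interstitial cells, neurons and glia 1 was higher, and of 8 mast cell and eosinophil markers 1 was higher. Adipoq, the fat cell hormone, read 10.99, 7.11 and 4.46 in cecum and 7.75, 10.82 and 8.69 in ileum, and Cfd and Car3 showed the same order of arrays. Scd1, a desaturase of fat tissue, ranged from 8.01 to 13.46 within cecum. Lipe fell by 0.96 and was the 1 of 14 fat cell markers that passed.

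Pancreatic acinar markers gave 1 higher and 2 lower of 6. Cela1, an elastase, read 11.84, 11.98 and 11.75 in cecum and 6.90, 7.12 and 6.89 in ileum, and Clps and Rnase1 fell (-3.55 and -3.93). The acinar marker Ctrl read between 4.65 and 5.36 on the 6 arrays.

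The wild type loops, cut from ileum, give a further view of these genes, as levels set beside the sham tissues with no test. Osr2 had a mean of 11.97 in self-emptying loops (n = 4) and 11.42 in self-filling loops (n = 3), whose arrays (11.21 to 11.62) all lay below the sham ileum arrays (11.91 to 12.01). Hoxd10 stood at 4.45 and 4.40, Atp12a at 4.43 and 4.44 and Insl5 at 4.34 and 4.29. For these 3 genes the range of each loop group overlapped that of sham ileum and lay below every cecum array. Other genes, picked as examples with no count over all genes, had self-filling means between the sham tissues. Aqp4 stood at 7.71 in self-emptying and 9.22 in self-filling loops, B3galt5 at 5.53 and 7.52 and Il1rn at 5.44 and 7.17. Some genes higher in cecum went the other way. Adh1 stood at 7.48 in self-filling loops and 8.76 in sham ileum, and Cyp2d10 at 5.42 and 6.86. Mean correlations of the wild type self-filling arrays were 0.961 with sham ileum and 0.904 with sham cecum over the probes tested. Between sham ileum and sham cecum the mean was 0.907.

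**Figure D5:**
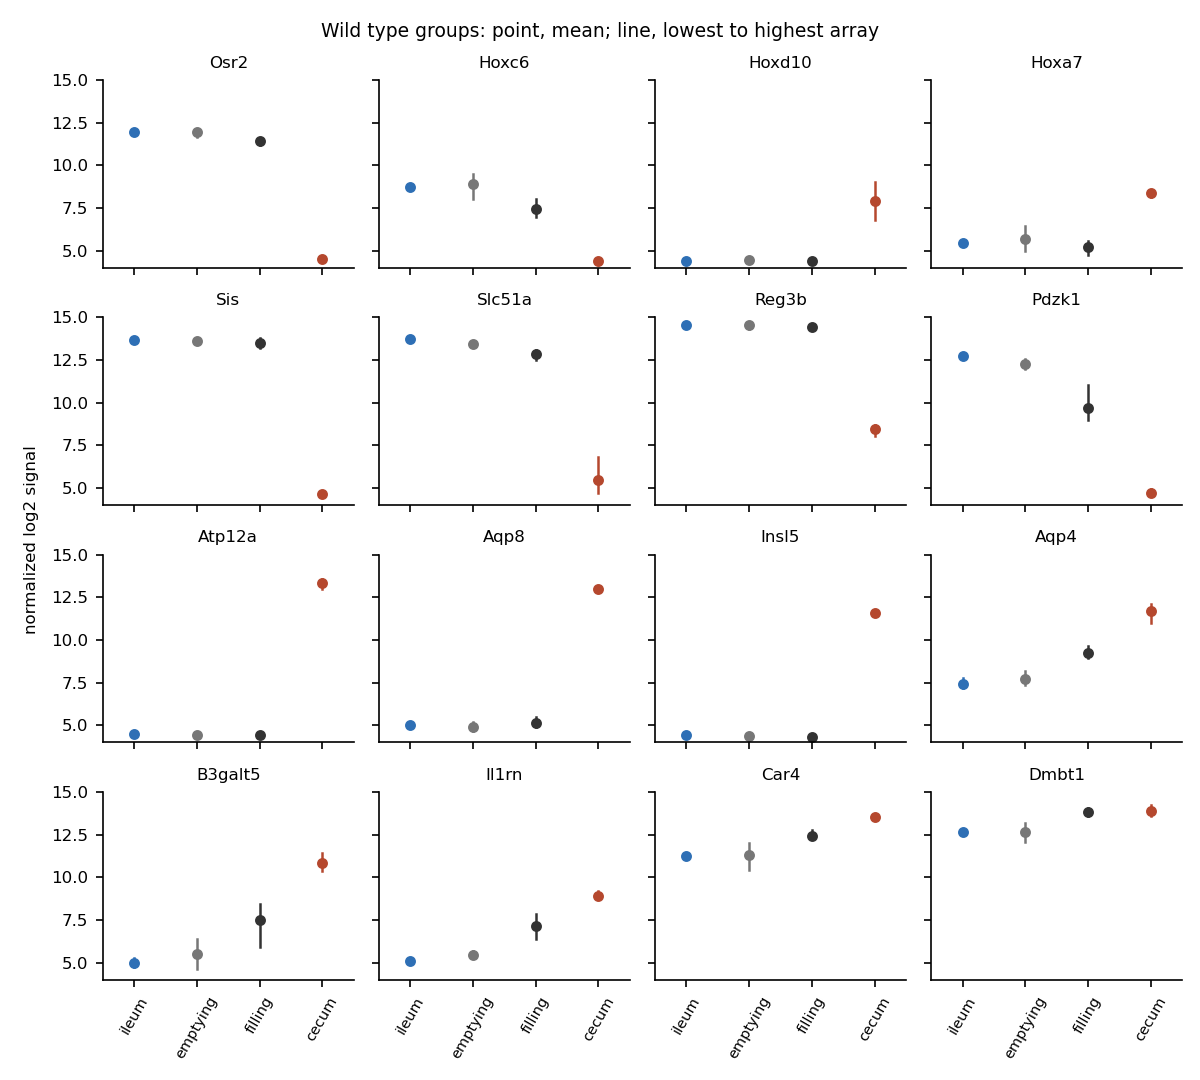
Mean normalized log2 signal (vertical axis) of 16 genes in the wild type groups, sham ileum (n = 3), self-emptying loop (n = 4), self-filling loop (n = 3) and sham cecum (n = 3). Points are means and lines run from the lowest to the highest array. For Hoxd10, Sis, Atp12a and Insl5 the range of each loop group overlaps that of sham ileum, while the self-filling means of Aqp4, B3galt5, Il1rn and Car4 lie between ileum and cecum.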

How the data were processed

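The authors deposited, for each of 25697 probes, the mean bead intensity without normalization, together with a bead number and, likewise as deposited, the detection p-value on every array. No source used here names the scanner software. Log2 values of part of the probes, also deposited by the authors, served as an alternative only. limma appears in the submitters' processing notes with no version given. Probe names came from the Entrez gene number (23788 probes), accession (1148), an older symbol (98) or a current symbol (99), and 564 were kept as in the file.

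Intensities were corrected by normexp from the detection p-values (offset 16) and quantile-normalized together (neqc), which assumes similar signal distributions in both tissues. The fit (limma 3.58.1 with statmod 1.5.0 in R 4.3.3) had 1 mean for each of the groups, with all arrays sharing the estimate of the spread (17 residual and 4.22 prior degrees of freedom), and tests were two-sided. It was tested on simulated data. Plots were drawn by matplotlib 3.10.9 from tables made in pandas 2.3.3 and numpy 2.4.6 (Python 3.11.15). A bound takes, per array, whichever is higher of the probe's own signal and the weakest detected one.

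Of 2896 genes with several probes, 156 had probes over 1 log2 unit apart. Named genes were drawn from the 15 largest rises and 15 largest falls with arrays that do not overlap, up to 6 passing members per direction of each list (all for transcription factors, Hox, bile acid, gasdermin and keratin genes), up to 3 members that did not pass, label markers, Tlr4 and Il10, and the 5 most variable genes per tissue. Others are marked in the text. The 45 lists held 1354 symbols, of which 999 were tested. Members and lists were chosen with earlier results of these data known. Alternatives covered normalization, background, filters, offset, weights, the samples fitted, a covariate, a fold threshold and each array left out.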

Additional observations from a re-analysis of the deposited data

How the results depend on the processing

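Under 19 of 20 alternatives, the counts of genes and probes that passed stayed within 1.5 times those reported. The exception tests for a difference of more than 1 log2 unit (limma's treat). It left 482 genes (225 higher and 257 lower in cecum) and 601 probes (272 and 329). It ended the call of 133 of 285 called genes that were named. None of those 285 genes changed direction under any alternative that tested them. Changes of direction were not tracked for genes without a call. Leaving out 1 sham array in turn gave 2557 to 2730 genes (1478 to 1559 higher, 1066 to 1181 lower) and 3315 to 3559 probes (1890 to 1999 and 1424 to 1560). The labels do not give pairs, and same-numbered arrays of the tissues were not taken as pairs. Their deviations from the tissue means correlated with r of -0.05, -0.04 and 0.09, and those of differently numbered arrays with r from -0.20 to 0.20. Deviations from a mean of 3 arrays are tied to each other, so these values cannot decide whether arrays are paired. With the replicate number as a block, fitted to the sham arrays alone, 3222 genes and 4285 probes passed. On those arrays with no block, 3417 and 4508 passed. Median scaling shifts the median of all probes to 0.14, from 0.02, and gave 2886 genes (1741 higher, 1145 lower). Array weights gave 3938 genes. The number of arrays limits the precision, and signals near background carry only a bound.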

Other observations

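Genes that passed also lay beside each other on the chromosomes. With the 10854 protein-coding genes tested placed in RefSeq order, 18 runs of at least 4 neighbours were all higher in cecum and 11 were all lower, the longest of 7 genes in each direction. No test of these runs was made, and all genes in this paragraph were chosen after their values were seen. The long run higher in cecum joins Hoxa5, Hoxa7, Hoxa9 and Hoxa13 with Evx1, a homeobox gene at the end of that cluster, and its neighbours Hibadh and Tax1bp1. Evx1 read 4.91, 5.03 and 5.53 in cecum and was not detected in ileum. The long run lower in cecum holds the defensin genes. Shorter runs were the glutathione transferases Gstm1, Gstm2, Gstm4, Gstm5 and Gstm6, higher in cecum by 1.10 to 2.87, and the kallikreins Klk1, Klk1b4, Klk1b5 and Klk1b27, higher by 2.92 to 3.43, with Klk1b8, not detected in ileum and at least 4.46-fold higher in cecum. Probes of such copies may cross-react, so members of a run are not separate measurements.

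The gut peptides guanylin and uroguanylin, encoded side by side, fell by different amounts. Guca2a, chosen after its values were seen, read 12.42, 13.15 and 13.18 in cecum and 14.20, 14.15 and 14.15 in ileum. That was a fall of 1.25, whereas Guca2b fell by 4.85. Ang4, an antimicrobial ribonuclease also chosen afterwards, read 11.14, 7.17 and 8.03 in cecum and 13.54, 13.67 and 14.26 in ileum. Its first cecum array stood well above the other cecum arrays. Retnlb, a goblet cell product raised by infection, read 10.62, 9.76 and 7.60 in cecum and 5.80, 6.66 and 9.42 in ileum, and did not pass (adjusted p = 0.194). The third ileum array, the highest for Retnlb, was also the highest for Gsdmc2, Gsdmc3 and Mptx1. On it Pla2g4c, a cytosolic phospholipase, read 10.31 against 5.77 and 6.17 on the other ileum arrays.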
